A study of Mus musculus with 16 samples.

Results

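The comparison described here is that of CD70TG with control mice in the hematopoietic stem cell (HSC) fraction labelled CD34+. It covers 8 of the 16 arrays of the series, 4 per genotype, chosen by their labels, with all probes and the brightest probe standing for a gene symbol. Control mice were IFNgamma-/- on the C57Bl/6 strain, and CD70TG mice carried the CD70 transgene on the same IFNgamma-/- background, so that both groups lacked this cytokine. Each array held RNA pooled from 2 mice, and the 4 pools of a group were independent. The other 8 arrays hold the same genotypes in the fraction labelled CD34-, the long-term HSC of the design. In the sort protocol both fractions carry the same CD34-Flt3- gate, which does not match the design, so the fraction is named by its label. Neither the age of the mice nor the promoter of the transgene is stated in the labels.

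CD70 is a TNF family ligand found on activated lymphocytes and dendritic cells, and its receptor CD27 is present on lymphocytes and on hematopoietic stem and progenitor cells. HSC are largely quiescent, and the cells next in line, short-term HSC and multipotent progenitors, divide more and give rise to granulocytes, monocytes, mast cells, platelets, red cells and lymphocytes. CD34 is a surface sialomucin that in adult mice is low on long-term HSC and present on short-term HSC and progenitors.

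Array values lay on a log2-like scale of unstated base, so 1 unit means a doubling only for base 2. Differences are CD70TG minus control, ± SE from a limma fit over all 16 arrays with n = 4 arrays per group, and a gene was called at a Benjamini-Hochberg adjusted p under 0.05. Of the probes of a CD34+ array, 52.9% to 57.3% lay above the array's background, replicate arrays correlated at r = 0.987 to 0.996, and the median SE of a difference was 0.0858. Values are compressed near background, so differences of dim genes are understated, and in sorted pools more RNA per cell and more cells of a type cannot be told apart. On the first principal component of these 8 arrays, which held 61.8% of the variance, control replicate 4 lay at -3.87. The other 3 control arrays lay between -27.3 and -19.7 and the CD70TG arrays between 11.4 and 24.6.

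In CD70TG cells 1900 of 18312 tested features were called (10.4%), 796 of them higher (4.35%) and 1104 lower (6.03%), and 131 and 121 differed by 1 or more. In 2784 features (15.2%) no array of one group overlapped the other group. Of 9337 features left by a stricter filter on dim probes, 937 were called higher and 1310 lower, larger shares than over all features. List counts below are to be read against these shares. Of the lists described below, mitosis (27 of 31), DNA replication (17 of 31), primary granule (15 of 25) and mast cell, basophil and eosinophil genes (8 of 18) had many members higher. Among the lists with falls were long-term HSC genes (19 of 36), platelet lineage genes (11 of 21), imprinted growth regulators (9 of 21, with 12 not called) and drug efflux and detoxification genes (11 of 31, with 20 not called). Some genes stand in more than 1 list. Across all features the median difference was 0.02. The plot of called shares by gene list shows the same split.

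**Figure D1:**
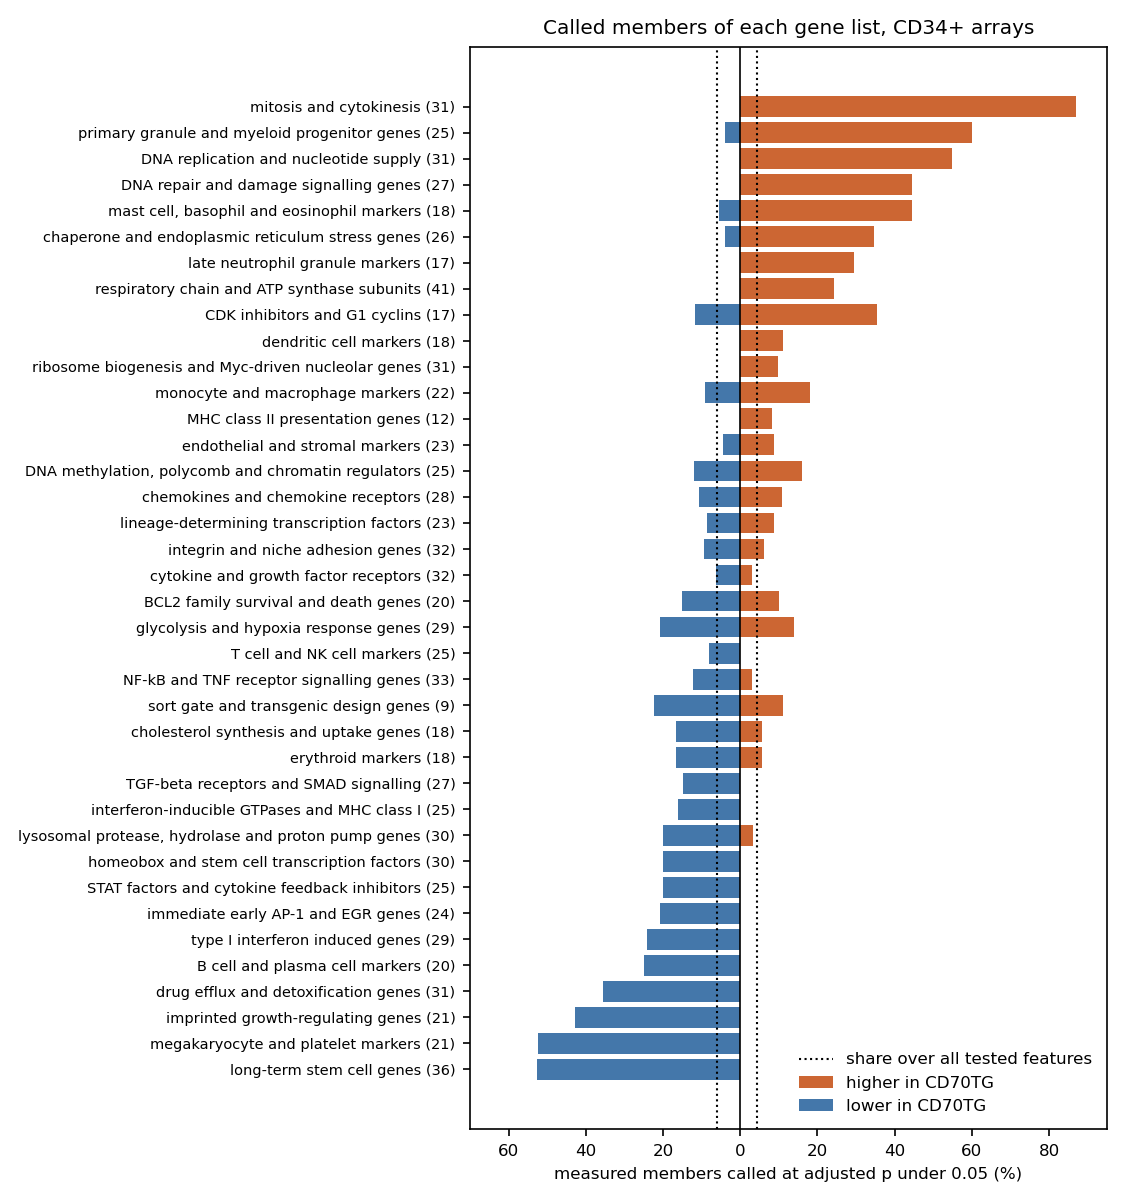
Share of the measured members of each gene list (number in brackets) that were called higher (orange, to the right) or lower (blue, to the left) in CD70TG CD34+ arrays, in percent. Dotted lines mark the shares over all tested features, 4.35% higher and 6.03% lower, and the mitosis list reaches farthest to the right with 27 of 31 members.

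The genes of the sort and of the transgenic design came first. Cd34, the antigen that names the fraction, was at 9.56, 9.42, 9.70 and 9.18 in control arrays and at 9.24, 9.39, 9.51 and 9.65 in CD70TG arrays. The ranges of the groups overlap (-0.02 ± 0.13, 95% interval -0.29 to 0.25). The transcript values of Cd34 do not bear out the name of the fraction. That name refers to the surface protein, which was not measured on these arrays. The means of the transcript were 9.47 ± 0.22 (control) and 9.44 ± 0.17 (CD70TG) in the fraction labelled CD34+, and 9.64 ± 0.09 and 9.54 ± 0.16 in that labelled CD34- (mean ± SD, n = 4), no higher in the former. CD34+ and CD34- below are therefore labels, not measured states of the cells. Slamf1, which encodes the HSC marker CD150, was at 7.26, 6.92, 7.08 and 7.31 in control arrays and at 6.34, 6.29, 6.41 and 6.40 in CD70TG arrays. Every CD70TG array lay below every control array, and 3 of the 4 lay below the background limit (-0.78 ± 0.11, adjusted p = 7.729e-05). Cd48, a receptor that HSC lack and progenitors carry, went the opposite way, from 7.95, 7.40, 7.26 and 8.16 to 8.93, 8.36, 9.09 and 9.21 (1.21 ± 0.26, adjusted p = 0.003313). The groups did not overlap, and control replicate 4 was the control array nearest to the CD70TG range. Flt3, the receptor of multipotent progenitors, was at 6.77, 6.29, 6.36 and 7.41 in control arrays and at 8.06, 6.91, 7.85 and 8.32 in CD70TG arrays, and the groups overlapped (1.08 ± 0.39, adjusted p = 0.08605). Without control replicate 4 Flt3 passed (1.31, adjusted p = 0.03135), as it did without CD70TG replicate 2 (1.37, adjusted p = 0.02988). Il7r (-0.47, adjusted p = 0.2736) and Fcgr3, which encodes a receptor of the CD16/32 gate (0.22, adjusted p = 0.1408), did not pass. Without control replicate 3 Fcgr3 passed (adjusted p = 0.0446), and without control replicate 4, Il7r was at -0.79 with an adjusted p of 0.007772. Kit and Ly6a, which encodes Sca-1, were not analysed here.

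Cd70 itself was lower, not higher, in transgenic cells of this fraction. The control arrays read 7.90, 9.60, 8.56 and 7.11, and the CD70TG arrays read 6.67, 6.89, 6.78 and 6.86, so the transgenic values are close together and the control values are spread widely (-1.495 ± 0.30, adjusted p = 0.001738). The sources used here do not say if this probe also detects the transgene, so Cd70 checks no label. The B cell genes Vpreb1 and Vpreb3, which encode a surrogate light chain and a partner of the B cell receptor in early B cells, had the same order over the control arrays. Vpreb1 was at 8.30, 9.84, 9.08 and 7.27 and Vpreb3 at 7.71, 8.97, 8.495 and 6.69 in control replicates 1 to 4. In all 3 genes control replicate 2 was highest, then replicates 3, 1 and 4. CD70TG arrays read 7.59, 7.38, 7.17 and 7.20 for Vpreb1 and 6.79, 6.86, 6.78 and 6.61 for Vpreb3. Both differences were called (-1.29 ± 0.34, adjusted p = 0.01567, and -1.21 ± 0.30, adjusted p = 0.01227). Both calls were lost without control replicate 2, at adjusted p of 0.065 and 0.05452, and without control replicate 3, at 0.06364 and 0.05641. Of 20 measured B cell and plasma cell markers 5 fell and 0 rose, with a median of -0.15, and their mean level ran from 6.76 to 7.38 in control and from 6.68 to 6.76 in CD70TG arrays. Without control replicate 2 the count of falls was 1, without replicate 3 it was 2, without replicate 4 it was 7, and without CD70TG replicate 4 it was 3. With the index as a covariate it was 0. The part of these B cell transcripts in the Cd70 difference was not tested.

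Cd27, the receptor, was a bright gene at 12.76, 12.77, 12.68 and 12.20 in control and 12.33, 12.35, 12.38 and 12.14 in CD70TG arrays. Control replicate 4 lay within the CD70TG range, and the difference did not pass (-0.31 ± 0.13, adjusted p = 0.1402); without that array Cd27 was at -0.44 with an adjusted p of 0.01145. Ifng, deleted in both genotypes, stayed close to background in every array (6.39 ± 0.10 and 6.31 ± 0.05, mean ± SD).

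**Figure D2:**
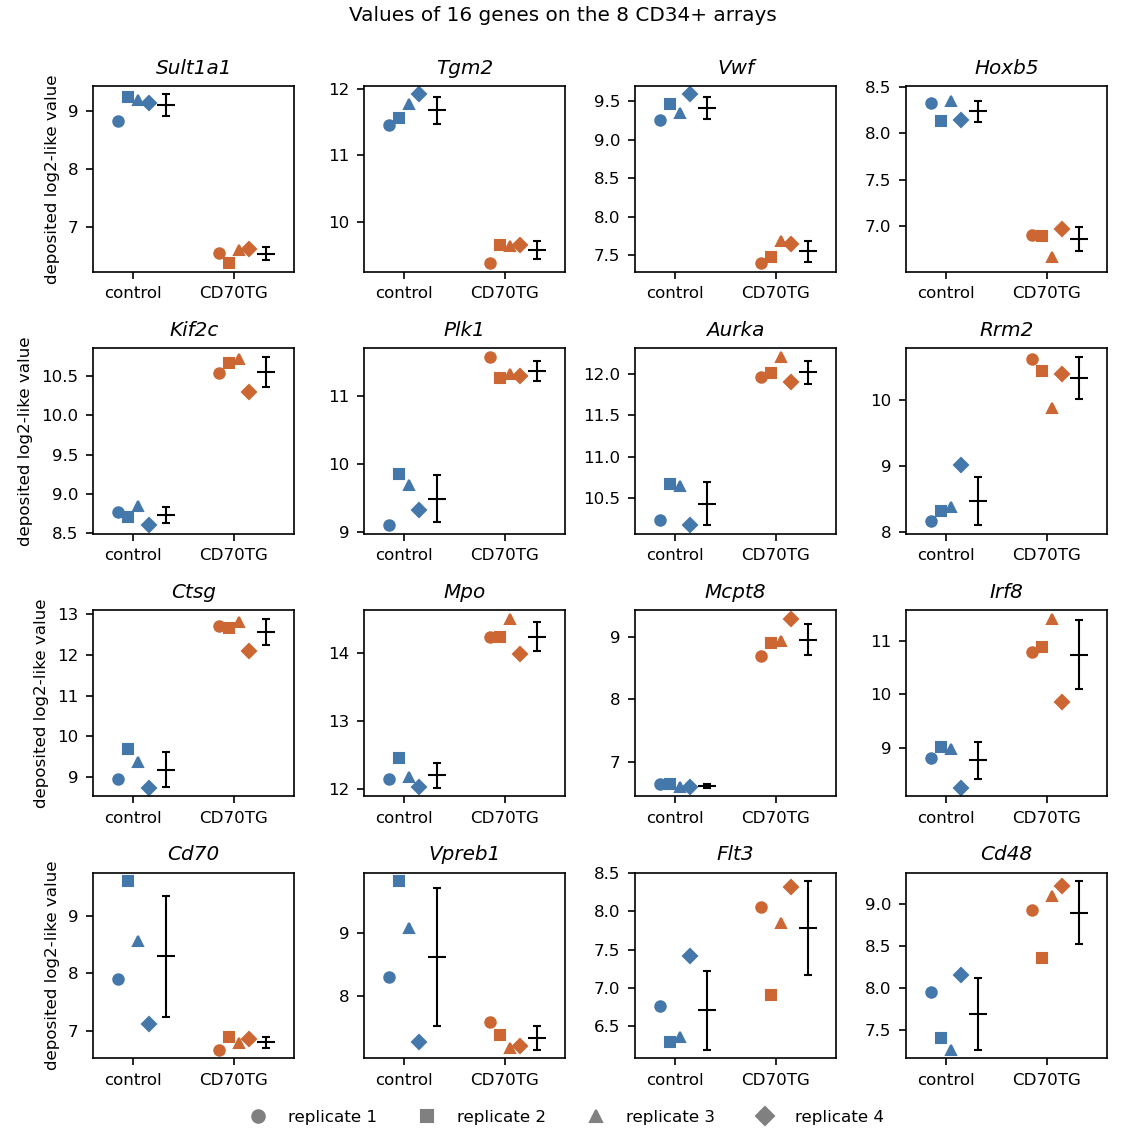
Deposited log2-like values of 16 genes on the 8 CD34+ arrays; each marker is 1 array, its shape gives the replicate number, and bars show the mean ± SD of 4 arrays. The upper 3 rows (HSC, cell division and myeloid genes) show groups that do not overlap, a condition for the largest rises and falls to be named. Vpreb1 and Flt3 overlap, and the control values of Cd70 run from 7.11 to 9.60. Axes differ between panels.

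Long-term HSC genes fell at 19 of 36 measured members and rose at 0, with a median difference of -0.42, where 6.03% of all features fell. The deepest fall was that of Sult1a1, a cytosolic sulfotransferase, from 8.83, 9.23, 9.19 and 9.13 to 6.57, 6.39, 6.61 and 6.62. All 4 CD70TG arrays lay far below the control range and near background (-2.55 ± 0.16, adjusted p = 4.515e-09). Tgm2, a transglutaminase, went from 11.46, 11.57, 11.77 and 11.92 to 9.38, 9.65, 9.63 and 9.66 (-2.10 ± 0.13, adjusted p = 4.515e-09). Vwf, the platelet adhesion protein that marks platelet-primed HSC, was at 9.26, 9.46, 9.35 and 9.59 in control and 7.40, 7.48, 7.69 and 7.65 in CD70TG arrays (-1.86 ± 0.14, adjusted p = 1.879e-08). Hoxb5, a homeobox factor restricted to long-term HSC in the mouse, was at 8.32, 8.14, 8.34 and 8.15 and 6.91, 6.89, 6.67 and 6.97 (-1.38 ± 0.11, adjusted p = 4.277e-08). For these 4 genes the gap between the groups exceeded the range within either of them. Sult1a1 and Tgm2 were named as largest falls, for which no overlap was a condition. All 4 were named by the size of the fall or by a small p, so a wide gap was favoured by that choice.

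Surface and adhesion genes of HSC followed. Esam, an endothelial adhesion molecule also carried by HSC, fell by 1.59, from 11.66 ± 0.17 to 10.08 ± 0.19 (mean ± SD, adjusted p = 1.153e-07). Robo4, a guidance receptor of HSC and endothelium, changed by -1.49 ± 0.15, from 11.45 ± 0.17 to 9.96 ± 0.21 (adjusted p = 1.128e-06), and its 2 dimmer probes did not move with it. Pdzk1ip1, a small membrane protein of HSC, changed by -1.69 ± 0.15 and Tek, the angiopoietin receptor, by -0.57 ± 0.10 (adjusted p = 0.0007152). Among transcription factors of HSC, Meis1 was at 13.67, 13.56, 13.45 and 13.70 in control and 13.16, 12.999, 13.06 and 13.15 in CD70TG arrays (-0.50 ± 0.08, adjusted p = 0.0001884). Gata2 changed by -0.56 ± 0.10, Hoxb2 by -0.57 ± 0.09 and the LIM-domain adaptor Lmo2 by -0.46 ± 0.07, with no overlap between the groups in any of the 3. In all, 6 of 30 homeobox and stem cell transcription factors fell and 0 rose (median -0.15). The HSC count ran from 18 to 20 when each array was left out in turn, and was 19 without control replicate 4 and 19 with a covariate for probe discordance, an index explained further on.

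Imprinted growth regulators, many of which restrain growth and are bright in quiescent HSC, fell at 9 of 21 measured members and rose at 0. The median of the list was -0.01, but only 11 of the 21 lay above background on all 4 arrays of at least 1 group. Differences of dim members are understated, so this median does not show how the expressed members moved. Cdkn1c, the CDK inhibitor p57, was at 11.04, 11.22, 11.60 and 11.34 in control and 9.54, 9.95, 9.55 and 9.75 in CD70TG arrays (-1.60 ± 0.13, adjusted p = 7.88e-08). Grb10, an adaptor that dampens insulin and growth factor receptors, went from 10.41, 10.38, 10.58 and 10.75 to 8.75, 8.75, 8.63 and 8.66 (-1.83 ± 0.13, adjusted p = 1.194e-08). The gap between the groups was wider than the range within either. Grb10 was named as a largest fall, for which no overlap was a condition. Ndn, a growth suppressor, read 11.28, 11.42, 11.54 and 11.47 against 9.98, 9.86, 9.64 and 9.77 (-1.62 ± 0.13, adjusted p = 7.88e-08). Ndn also stands in the HSC list. Phlda2, a pleckstrin-domain gene that limits placental growth, changed by -1.70 ± 0.14 (adjusted p = 5.893e-08), and Snrpn, a splicing factor gene, by -1.71 ± 0.14 (adjusted p = 8.951e-08), although a dimmer second probe of Snrpn did not move. The count of falls was 9 without each array in turn and with the index as a covariate.

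Other large falls lay outside these lists. Unc45b, a myosin chaperone, changed by -2.28 ± 0.15, Wfdc2 by -2.08 ± 0.16 and the dehydrogenase gene Bdh2 by -1.83 ± 0.13. Upp1, a uridine phosphorylase, changed by -1.79 ± 0.18, Art4, which carries the Dombrock blood group, by -1.74 ± 0.14 and the collagen gene Col16a1 by -1.69 ± 0.15. These 6 were named as largest falls, a rule that admits only called genes without overlap between groups. Their lack of overlap was therefore set by that choice. The largest adjusted p among them was 6.127e-07. Detoxification enzymes and efflux pumps, which are high in HSC, fell at 11 of 31 members and rose at 0 (median -0.08). Sult1a1 stands both in this list and in the HSC list, so the 2 counts are not independent. Aldh1a1, a retinaldehyde dehydrogenase, read 8.71, 8.36, 8.76 and 9.34 in control and 7.53, 7.26, 7.34 and 7.51 in CD70TG arrays (-1.38 ± 0.17, adjusted p = 6.481e-06). The epoxide hydrolase Ephx1 changed by -0.98 ± 0.13 and the glutathione transferases Gstm2 by -0.89 ± 0.12 and Gstt1 by -0.61 ± 0.08 (adjusted p = 3.493e-05, the largest p of the 4).

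Genes of the platelet lineage fell at 11 of 21 measured members and rose at 0, with a median of -0.40. Besides Vwf and Slamf1, which also stand in the HSC list, they included subunits of the von Willebrand factor receptor. Gp9 was at 8.55, 8.19, 8.62 and 8.51 in control and 7.73, 7.67, 7.69 and 7.61 in CD70TG arrays (-0.79 ± 0.11, adjusted p = 4.95e-05), and Gp1bb at 7.59, 7.19, 7.70 and 7.52 and 6.83, 6.72, 6.86 and 6.71 (-0.72 ± 0.11, adjusted p = 0.0001623). In neither gene did the groups overlap. Treml1, a receptor of platelet granules, changed by -0.99 ± 0.17 and the platelet chemokine Pf4 by -0.67 ± 0.16, from 13.22 ± 0.28 to 12.55 ± 0.19. Nfe2, a factor needed for platelet release, changed by -0.73 ± 0.13. Outside the list, Zfpm1 (FOG1), the partner of GATA1 in this lineage, changed by -0.93 ± 0.12. In the fraction labelled CD34- the same list had 6 falls and 2 rises with a median of -0.02, and 0 of its members were called for a difference between the fractions. Of 18 erythroid markers 3 fell and 1 rose. The aquaporin Aqp1 changed by -1.13 ± 0.20 (adjusted p = 0.0005341), and the transferrin receptor Tfrc by 0.69 ± 0.16 (adjusted p = 0.007514). The carbonic anhydrase Car2 changed by -0.83 ± 0.11 at its brighter probe, while its other probe stood 0.83 higher in CD70TG arrays without passing (adjusted p = 0.3614).

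Against these falls, genes of mitosis and cytokinesis rose at 27 of 31 measured members and fell at 0, with a median of 0.99, where 4.35% of all features rose. Kif2c, a kinesin that takes microtubules apart at the kinetochore, was at 8.77, 8.70, 8.84 and 8.60 in control and 10.54, 10.67, 10.72 and 10.29 in CD70TG arrays (1.83 ± 0.11, adjusted p = 4.515e-09). Plk1, the polo-like kinase of mitotic entry, went from 9.10, 9.85, 9.70 and 9.33 to 11.57, 11.25, 11.32 and 11.29 (1.86 ± 0.16, adjusted p = 1.19e-07). The groups lay far apart in both genes. Both were named among the largest rises, for which no overlap was a condition. Aurka, the spindle pole kinase, was at 10.24, 10.66, 10.64 and 10.17 and 11.96, 12.01, 12.21 and 11.90 (1.59 ± 0.13, adjusted p = 7.88e-08). Tpx2, its activator, rose by 1.48 ± 0.13, Nusap1, a spindle-associated protein, by 1.54 ± 0.14 and the spindle motor Kif11 by 1.74 ± 0.16. The mean level of the list lay between 8.24 and 8.43 in control arrays and between 9.29 and 9.40 in CD70TG arrays. The count of rises was 26 or 27 when each array was left out and 23 with the index as a covariate.

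Because mitotic genes moved together, their promoters are shown with the short elements known to act in such genes: the CHR element (TTTGAA), read by the DREAM and B-MYB complexes, the CCAAT box (CCAAT), bound by NF-Y, and the E2F cores GCGCGAA and GCGGGAA. The 3 mitosis genes with the smallest p are followed by the 3 long-term HSC genes with the smallest p that have a RefSeq entry and that the naming rule admits. Sequences are from RefSeq on GRCm38.p6, from 250 bases before to 50 bases after the start, 5′ to 3′ on the gene's strand, and capitals mark any of the elements on either strand.
Kif2c, chr4:117178723-117179022, - strand: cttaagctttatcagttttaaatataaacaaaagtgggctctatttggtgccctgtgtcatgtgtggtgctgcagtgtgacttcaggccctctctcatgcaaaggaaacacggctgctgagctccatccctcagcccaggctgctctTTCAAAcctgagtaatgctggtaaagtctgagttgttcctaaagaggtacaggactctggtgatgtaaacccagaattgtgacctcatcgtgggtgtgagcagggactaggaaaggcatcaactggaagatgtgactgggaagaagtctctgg
Aurka, chr2:172370521-172370820, - strand: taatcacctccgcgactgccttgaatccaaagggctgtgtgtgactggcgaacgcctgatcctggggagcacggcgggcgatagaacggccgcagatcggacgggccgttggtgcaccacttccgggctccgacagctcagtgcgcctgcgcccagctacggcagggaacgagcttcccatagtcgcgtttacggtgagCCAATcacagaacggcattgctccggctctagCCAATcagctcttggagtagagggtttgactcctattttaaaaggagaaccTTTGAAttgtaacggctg
Plk1, chr7:122159185-122159484, + strand: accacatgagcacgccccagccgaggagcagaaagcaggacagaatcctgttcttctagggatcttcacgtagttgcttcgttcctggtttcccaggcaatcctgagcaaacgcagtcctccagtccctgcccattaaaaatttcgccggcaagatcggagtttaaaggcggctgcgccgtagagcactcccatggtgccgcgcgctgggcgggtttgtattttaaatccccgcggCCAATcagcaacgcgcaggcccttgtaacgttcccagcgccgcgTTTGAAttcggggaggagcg
Sult1a1, chr7:126676369-126676668, - strand: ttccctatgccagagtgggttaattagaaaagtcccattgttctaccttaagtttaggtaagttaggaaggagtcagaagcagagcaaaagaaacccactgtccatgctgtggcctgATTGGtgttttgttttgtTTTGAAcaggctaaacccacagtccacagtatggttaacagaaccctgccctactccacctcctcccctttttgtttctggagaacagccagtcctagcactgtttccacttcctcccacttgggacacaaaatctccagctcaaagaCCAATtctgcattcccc
Ndn, chr7:62348027-62348326, + strand: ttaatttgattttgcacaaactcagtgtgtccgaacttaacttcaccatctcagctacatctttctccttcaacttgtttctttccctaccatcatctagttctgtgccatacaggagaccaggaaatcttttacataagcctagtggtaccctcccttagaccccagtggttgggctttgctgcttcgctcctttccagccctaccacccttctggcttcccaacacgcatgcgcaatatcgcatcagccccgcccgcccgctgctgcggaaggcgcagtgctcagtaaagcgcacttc
Pdzk1ip1, chr4:115088458-115088757, + strand: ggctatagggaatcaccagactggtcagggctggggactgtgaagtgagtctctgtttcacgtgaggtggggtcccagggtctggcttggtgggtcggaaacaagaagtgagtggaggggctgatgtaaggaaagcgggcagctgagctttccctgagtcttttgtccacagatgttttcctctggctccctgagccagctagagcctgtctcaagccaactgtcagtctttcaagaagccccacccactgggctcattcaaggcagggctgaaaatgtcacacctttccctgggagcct

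Aurka and Plk1 have a CCAAT box before the start and a CHR element shortly after it. In the Kif2c window there is 1 CHR element, on the opposite strand. Among the HSC genes, Sult1a1 holds 1 CHR element and 2 CCAAT boxes, and the windows of Ndn and Pdzk1ip1 hold none of these letters. Over the mitosis list, 21 of 26 promoters in the table held the CHR letters (80.8%) and 20 held CCAAT (76.9%). In the HSC list the counts were 6 and 10 of 30 (20% and 33.3%). The shares over the promoters of the 13336 measured genes with an admitted entry were 15.4% for CHR and 38.8% for CCAAT. Promoters on a chromosome left out by the naming rule are in none of these counts. E2F cores were found in 2 mitosis promoters (7.69%), 4 HSC promoters (13.3%) and 8.41% of all 13336. No element is contained in another on either strand, each gene was represented by its first listed entry, and a match in letters is not a measured binding site.

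DNA replication and nucleotide supply genes rose at 17 of 31 members and fell at 0 (median 0.52). Rrm2, the regulated subunit of ribonucleotide reductase, was at 8.17, 8.32, 8.38 and 9.01 in control and 10.62, 10.45, 9.88 and 10.40 in CD70TG arrays (1.87 ± 0.24, adjusted p = 1.536e-05). Its highest control value was that of replicate 4. Mcm10, a replication initiation factor, rose by 1.11 ± 0.13, Clspn (claspin), which guards replication forks, by 0.95 ± 0.12 and thymidine kinase Tk1 by 1.03 ± 0.13. Of 27 DNA repair genes 12 rose and 0 fell (median 0.34). H2ax, the histone variant marked at DNA breaks, was at 11.03, 11.14, 11.33 and 11.12 and 12.38, 12.78, 12.52 and 12.41 (1.37 ± 0.12, adjusted p = 1.319e-07). The helicase Blm rose by 0.91 ± 0.10, Brca1 by 1.16 ± 0.18 and the glycosylase Neil3 by 1.74 ± 0.24 (adjusted p = 3.607e-05). Among CDK inhibitors and G1 regulators, 6 of 17 rose and 2 fell, and the inhibitors did not go one way. While Cdkn1c (p57) fell, Cdkn1a (p21) rose from 8.13, 8.25, 8.44 and 7.66 to 8.88, 9.07, 9.02 and 8.67 (0.79 ± 0.15, adjusted p = 0.001058). E2f1 rose by 0.51 ± 0.12. Without control replicate 1 the 6 rises became 2, and with the index there were 3 rises and 1 fall. Chromatin regulators were mixed, with 4 of 25 higher and 3 lower. The methyltransferase of polycomb, Ezh2, was higher by 0.87 ± 0.15 and the maintenance DNA methyltransferase Dnmt1 by 0.56 ± 0.12, whereas the polycomb reader Cbx7 was lower (-0.81 ± 0.15, adjusted p = 0.001082). Leaving out any 1 of 6 arrays brought the 3 falls to 1, as did the index.

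Primary granule and myeloid progenitor genes rose at 15 of 25 members and fell at 1 (median 0.52). Ctsg, the granule protease cathepsin G, had the largest rise of all called genes, from 8.95, 9.69, 9.37 and 8.75 in control to 12.70, 12.67, 12.80 and 12.10 in CD70TG arrays (3.38 ± 0.24, adjusted p = 1.711e-08). Mpo, myeloperoxidase, was bright in both groups, at 12.15, 12.46, 12.17 and 12.02 and 14.24, 14.25, 14.51 and 13.99 (2.05 ± 0.14, adjusted p = 4.868e-09). Elane, neutrophil elastase, went from 6.54, 6.72, 6.71 and 6.84 to 8.37, 8.44, 9.17 and 8.51 (1.92 ± 0.25, adjusted p = 1.541e-05). All 3 are stored in the same granules. They were named among the largest rises, for which no overlap between the groups was a condition. F13a1, a coagulation factor subunit of monocytes, lay below background in all 4 control arrays, at 6.23, 6.02, 6.28 and 6.18, and reached 8.36, 8.03, 8.87 and 7.57 in CD70TG arrays. It was at least 1.85 units higher there, or 3.61-fold if the base is 2 (adjusted p = 6.934e-07). Ms4a3, a marker of granulocyte and monocyte progenitors, rose by 1.47 ± 0.16 and Anxa3 by 1.92 ± 0.19. Irf8, the factor that directs progenitors towards monocytes and dendritic cells, read 8.82, 9.01, 8.98 and 8.26 against 10.79, 10.89, 11.40 and 9.86 (1.97 ± 0.23, adjusted p = 4.48e-06), while of the 23 lineage-determining factors 2 rose and 2 fell. Over all features 4.35% rose and 6.03% fell, and larger shares did among bright ones, so the counts of these factors do not single them out.

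Mast cell, basophil and eosinophil genes rose at 8 of 18 members, with Gata2 the 1 that fell. Mcpt8, a basophil protease, was near background in control arrays, at 6.64, 6.64, 6.59 and 6.59, and reached 8.70, 8.91, 8.94 and 9.30 in CD70TG arrays (2.34 ± 0.15, adjusted p = 4.515e-09). Hdc, which makes histamine, went from 9.02, 8.51, 9.46 and 8.85 to 10.93, 10.85, 10.89 and 10.10 (1.73 ± 0.23, adjusted p = 1.91e-05). Tpsb2, a mast cell tryptase, was at 6.31, 6.12, 6.17 and 6.28 and 7.64, 6.61, 7.86 and 7.99 (1.30 ± 0.18, adjusted p = 4.928e-05), with CD70TG replicate 2 well below the other 3. Cpa3, the mast cell carboxypeptidase, rose by 0.84 ± 0.15. Late neutrophil granule markers rose at 5 of 17 members and fell at 0 (median 0.40). S100a8, an alarmin of mature neutrophils, was at 11.04 ± 0.14 in control and 11.92 ± 0.30 in CD70TG arrays (0.88 ± 0.18, adjusted p = 0.002247). The chitinase-like Chil3 rose by 0.94 ± 0.22 (adjusted p = 0.006063). The number of rises was 3 without CD70TG replicate 2 or control replicate 4 and 2 without CD70TG replicate 3, and 9 with the index as a covariate. Markers of such maturing cells moved with the primary granule genes, and their part in that result was not tested.

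**Figure D3:**
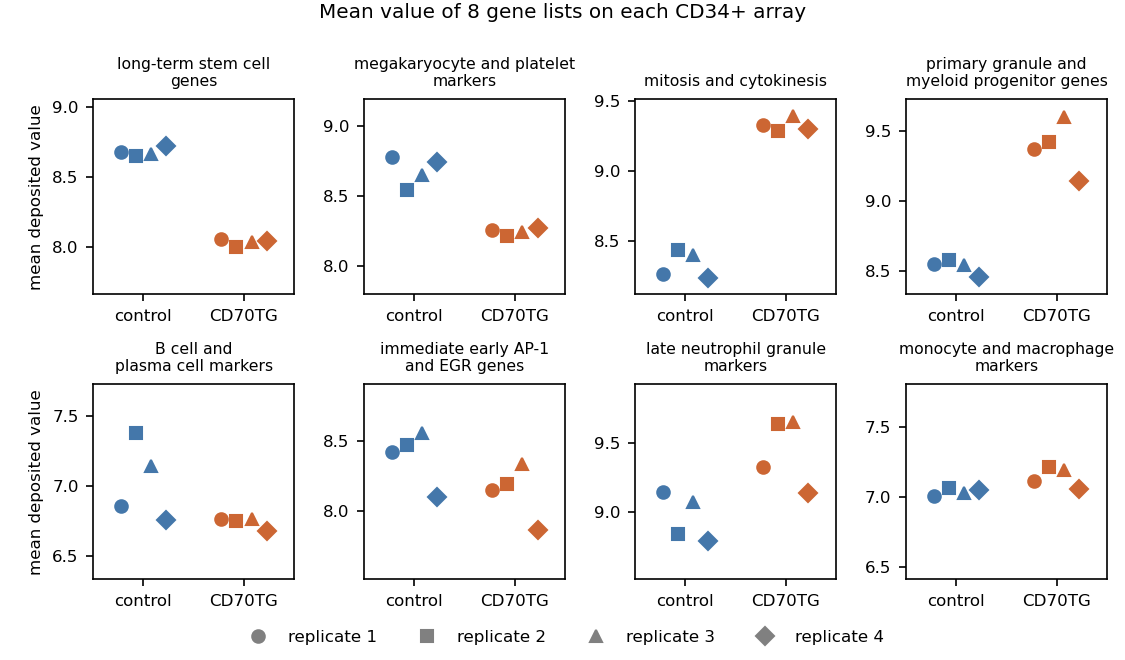
Mean deposited value of the measured members of 8 gene lists on each of the 8 CD34+ arrays; marker shape gives the replicate number and all panels span 1.4 units. HSC, platelet, mitosis and primary granule lists separate the genotypes on every array. In the late neutrophil list the groups overlap, with control replicate 1 at 9.145 and CD70TG replicate 4 at 9.140. The B cell list runs from 6.76 to 7.38 within the control group, and the AP-1 list is lowest on replicate 4 of both groups.

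Signalling genes moved in smaller numbers. Feedback inhibitors of cytokine receptors and STAT factors fell at 5 of 25 members and rose at 0. Cish, a STAT5-induced inhibitor, was at 10.32, 10.63, 10.76 and 10.27 in control and 8.81, 9.36, 9.06 and 8.93 in CD70TG arrays (-1.46 ± 0.17, adjusted p = 5.072e-06), and Socs2 changed by -0.99 ± 0.17 and Stat4 by -0.63 ± 0.13. The count of falls was 5 without each array in turn, and without control replicate 4 there were also 3 rises. NF-kB and TNF receptor genes, to which CD27 signalling leads, had 4 falls and 1 rise among 33 members (median -0.05). Of the 33, 28 lay above background on all 4 arrays of at least 1 group. Over all features 6.03% fell and 4.35% rose, and larger shares did among bright ones, so these counts do not single out the list. Traf1, an adaptor induced by NF-kB, was at 7.62, 7.603, 7.79 and 7.52 and 6.85, 6.88, 6.87 and 6.86 (-0.77 ± 0.08, adjusted p = 2.395e-06), a fall with 4 nearly equal CD70TG values. Tnfaip2 changed by -0.67 ± 0.11 and lymphotoxin beta, Ltb, by -0.61 ± 0.11. Without control replicate 4 there were 7 falls and 2 rises. Siva1, which binds the tail of CD27, was higher by 0.34 ± 0.10 (adjusted p = 0.03686), and the call was lost without each of 6 arrays in turn, all but control replicate 2 and CD70TG replicate 4 (adjusted p from 0.05736 to 0.111).

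Interferon-induced genes were lower in part, in animals of which neither group could make IFNgamma. Of 29 genes induced by type I interferon, 7 fell and 0 rose (median -0.24), and interferon-inducible GTPases and MHC class I genes fell at 4 of 25 and rose at 0 (median -0.08). Rsad2 (viperin) read 9.51, 9.70, 9.82 and 9.28 in control and 8.76, 8.67, 8.89 and 8.33 in CD70TG arrays (-0.92 ± 0.20, adjusted p = 0.004562). Mx2 changed by -0.66 ± 0.12 and Ifitm3 by -0.52 ± 0.11. Gbp2, a guanylate-binding protein, changed by -0.89 ± 0.11 at its brightest probe (adjusted p = 9.733e-06), while its 2 dimmer probes stood 0.52 and 0.12 higher without passing. Igtp and Irgm2, immunity-related GTPases, changed by -0.65 ± 0.12 and -0.67 ± 0.12. Against a minimum fold of 1.2, taken on base 2, 0 type I interferon genes were called.

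Immediate early genes, which respond to handling as well as to signals, fell at 5 of 24 members and rose at 0. Egr1 was at 11.78, 12.05, 12.27 and 11.47 in control and 10.48, 10.52, 10.79 and 9.84 in CD70TG arrays (-1.49 ± 0.23, adjusted p = 0.000172), with replicate 4 lowest in both groups. The mean of the list was also lowest on replicate 4 of each group, at 8.10 among control and 7.86 among CD70TG arrays. The count was 9 without control replicate 4, 1 without CD70TG replicate 1 or control replicate 2, 2 without control replicate 1, control replicate 3 or CD70TG replicate 4, and 1 with the index as a covariate.

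Chemokine genes went both ways, with 3 of 28 higher and 3 lower. Ccl9, a chemokine of myeloid cells, was at 10.21, 9.66, 10.04 and 10.03 in control and 11.86, 11.76, 11.97 and 11.40 in CD70TG arrays (1.76 ± 0.14, adjusted p = 3.701e-08). Ccl4 did the reverse, from 10.66, 10.55, 10.77 and 10.49 to 9.21, 9.05, 9.61 and 9.02 (-1.40 ± 0.15, adjusted p = 1.837e-06). Both differences exceeded the range within either group. Ccl9 was named as a largest rise and Ccl4 by its small p, so a wide gap was favoured by that choice. The receptors Cx3cr1, of monocytes, and Cxcr4, which retains stem cells in the marrow, rose by 0.85 ± 0.10 and 0.66 ± 0.13. TGF-beta receptor and SMAD genes had 4 of 27 lower and 0 higher, where 6.03% of all features and a larger share of bright ones fell. The falls were the accessory receptors Eng (-0.92 ± 0.18) and Tgfbr3 (-0.64 ± 0.11), Ltbp3 (-0.70 ± 0.15) and Smad6 (-0.34 ± 0.10). The Smad6 call was lost without control replicate 1, 2 or 3 or CD70TG replicate 1, 3 or 4. It was also lost with the index (adjusted p = 0.2585). Signalling itself was not measured. In the BCL2 family 2 of 20 rose and 3 fell. Its survival genes did not go one way: Bcl2 was higher (0.76 ± 0.16), whereas Mcl1 (-0.54 ± 0.14, adjusted p = 0.01265) and Bcl2l2 (-0.51 ± 0.14, adjusted p = 0.01785) were lower. The death gene Bbc3 (PUMA) was lower (-0.52 ± 0.11) and Bcl2l13 higher (0.54 ± 0.15, adjusted p = 0.02558). The call of Mcl1 was lost without CD70TG replicate 1 or control replicate 2, that of Bcl2l2 without control replicate 1 or 3 or CD70TG replicate 2 or 4, and that of Bcl2l13 without control replicate 2 or 3 or CD70TG replicate 1, 2 or 3. With the index 1 of the 20 rose, Bcl2, and 1 fell, Bbc3. Of 32 receptors for cytokines and growth factors 1 rose and 2 fell, shares near those over all features (4.35% and 6.03%), and with the index 0 rose and 3 fell.

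Metabolic lists were mixed. Glycolysis and hypoxia genes rose at 4 and fell at 6 of 29: the myeloid hexokinase Hk3 rose by 1.14 ± 0.16, while the enolase Eno2 (-1.34 ± 0.15), the aldolase Aldoc (-1.16 ± 0.17) and the glucose transporter Slc2a1 (-0.88 ± 0.18) fell. Respiratory chain and ATP synthase genes rose at 10 of 41 and fell at 0 (median 0.20), with Ndufa4 at 0.77 ± 0.12 and Ndufb6 at 0.56 ± 0.10. That count was 3 without CD70TG replicate 1 or control replicate 3, 5 without control replicate 2 or CD70TG replicate 4, and 6 without control replicate 1. With the index it was 5. Chaperone genes rose at 9 of 26 and fell at 1, but with the index 1 rose and 1 fell. Hsp90aa1, the inducible HSP90, was at 9.91, 8.94, 8.98 and 11.29 in control and 11.84, 10.85, 11.54 and 11.82 in CD70TG arrays, so that control replicate 4 lay within the CD70TG range (1.74 ± 0.46, adjusted p = 0.01621). Its call was lost without CD70TG replicate 1 or 4 or control replicate 2 or 3, at adjusted p from 0.05678 to 0.0726. The count of 9 fell to between 2 and 4 without CD70TG replicate 1, 3 or 4 or control replicate 2 or 3. Ribosome biogenesis genes rose at 3 of 31, lysosomal genes at 1 of 30 with 6 lower, and cholesterol genes at 1 of 18 with 3 lower. With the index 2 lysosomal genes were lower, 2 of the glycolysis list higher and 5 lower, and 0 cholesterol genes higher and 2 lower. In the lists with 3 or fewer calls in a direction, leaving out an array moved such a count by up to 3.

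The fraction labelled CD34- gave the closest comparison. A difference of the CD70TG effect between the fractions was called for 40 features (0.218%), 6 more positive and 34 more negative in cells labelled CD34+, and 1310 had an unadjusted p under 0.05. Monocyte and macrophage markers set the fractions apart, with 12 of 22 measured members called for that difference. In cells labelled CD34+ 4 of the 22 rose and 2 fell (median 0.04), whereas in cells labelled CD34- 16 rose and 0 fell (median 0.84). Their mean level over the CD34+ arrays ran from 7.01 to 7.06 in control and from 7.06 to 7.21 in CD70TG arrays. Only 9 of the 22 lay above background on all 4 arrays of at least 1 group labelled CD34+. Differences of dim members are understated there. The median of 0.04 and the calls between fractions therefore do not show how far dim members moved in cells labelled CD34+.

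Mrc1, the mannose receptor of macrophages, was at 6.27, 6.40, 6.45 and 6.53 in control and 6.38, 6.55, 6.61 and 6.48 in CD70TG CD34+ arrays, and 5 of these 8 values lay above background (0.10 ± 0.12, adjusted p = 0.7266). In cells labelled CD34- it went from 7.42 ± 0.10 to 9.27 ± 0.31 (mean ± SD, n = 4), and the effects differed by -1.76 ± 0.17 (adjusted p = 1.489e-05). Fcna, a ficolin of macrophages, lay below background on all 8 CD34+ arrays and rose by 1.79 ± 0.10 in cells labelled CD34- (adjusted p = 1.296e-06 for the difference). The complement genes C1qb and C1qc, named here after their values were seen, were above background on 1 and 0 of the 8 CD34+ arrays. Axl, a receptor for dying cells, ran in opposite directions: it fell in cells labelled CD34+, from 8.75, 9.18, 8.89 and 9.38 to 8.03, 8.46, 8.25 and 8.14 (-0.83 ± 0.18, adjusted p = 0.003258), and was at 1.24 ± 0.18 in cells labelled CD34- (-2.07 ± 0.25 between them, adjusted p = 0.0001816). Lpl, lipoprotein lipase, was at -0.43 in cells labelled CD34+ (adjusted p = 0.2526, and 0.04451 without control replicate 1) and 2.38 ± 0.22 in cells labelled CD34- (-2.81 ± 0.31, adjusted p = 8.337e-05). Vcam1, which macrophages and stroma carry, was higher in both, by 0.89 ± 0.23 and 2.73 ± 0.23 (-1.85 ± 0.33, adjusted p = 0.01156). In cells labelled CD34+ the Vcam1 call was lost without CD70TG replicate 1 or control replicate 2 or 3, at adjusted p from 0.05027 to 0.0804. Adgre1, a surface marker of mouse macrophages, was higher by 0.53 ± 0.13 and 1.77 ± 0.13 (-1.25 ± 0.18, adjusted p = 0.001555), with the CD34+ call lost without CD70TG replicate 3 (adjusted p = 0.05128). Cd163 (0.86 ± 0.18, adjusted p = 0.002576) and Cx3cr1 (0.85 ± 0.10, adjusted p = 9.658e-06) also rose in cells labelled CD34+. Both calls held without each array in turn and with the index. Neither gene was called for a difference between the fractions (adjusted p = 0.3043 and 0.3053). A dimmer probe of Cd163 did not move. Besides Axl, Spic fell (-0.72 ± 0.12, adjusted p = 0.0002337). Among granule genes 1 of 25 was called for a difference, Ms4a3 (1.47 ± 0.16 in CD34+ and 2.62 ± 0.16 in cells labelled CD34-, adjusted p = 0.02813). Of the HSC, mitosis, replication and imprinted lists, 0 members were called for a difference between the fractions.

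**Figure D4:**
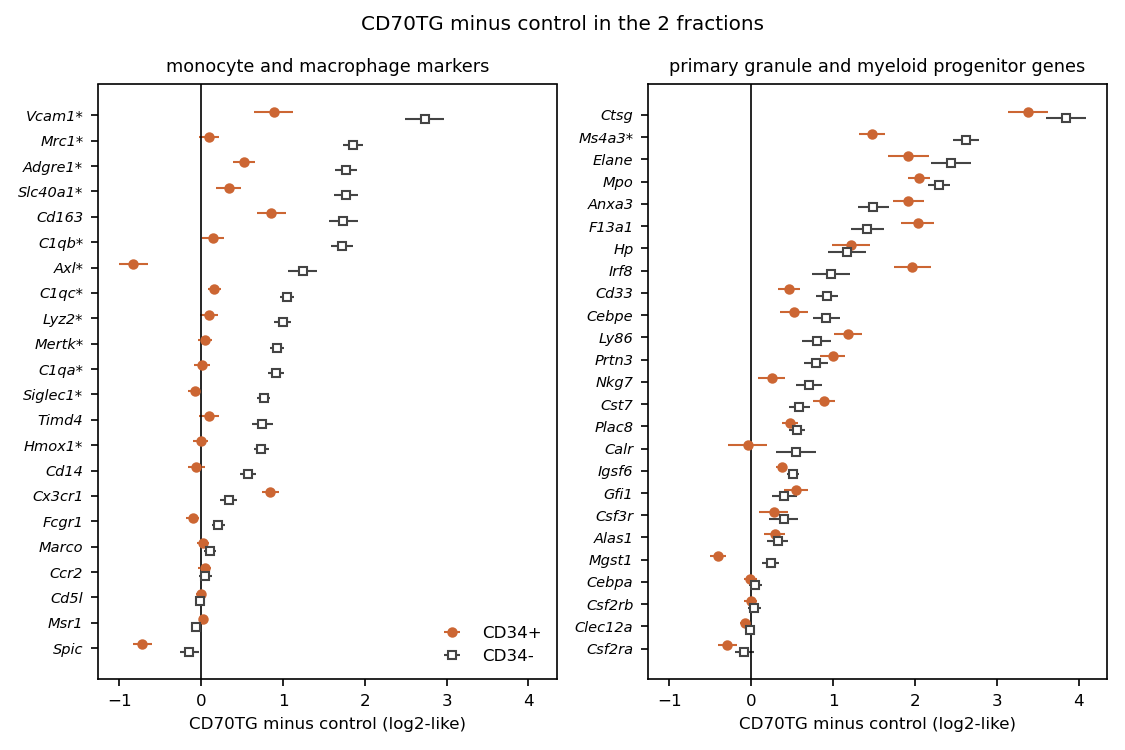
CD70TG minus control (± SE of the limma fit, n = 4 arrays per group) for 22 monocyte and macrophage markers and 25 primary granule and myeloid progenitor genes, in CD34+ (filled circles) and CD34- (open squares) arrays. Asterisks mark the 12 macrophage genes and the 1 granule gene, Ms4a3, whose effects differed between the fractions at adjusted p under 0.05. Only 9 of the 22 macrophage markers lay above background on all 4 arrays of at least 1 CD34+ group, and differences of dim genes are understated.

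More positive in cells labelled CD34+ were Ehd3, an endosomal trafficking gene, and Esm1 (endocan), a secreted proteoglycan of endothelium. Esm1 was at 8.05, 7.95, 7.71 and 7.54 in control and 8.89, 8.77, 8.34 and 8.68 in CD70TG CD34+ arrays (0.86 ± 0.15, adjusted p = 0.0005795) and at -0.23 ± 0.15 in cells labelled CD34- (1.09 ± 0.21, adjusted p = 0.02813). Of the 23 endothelial and stromal markers 2 rose and 1 fell in cells labelled CD34+, and their mean level was 6.74 to 6.80 in control and 6.77 to 6.79 in CD70TG arrays. Ehd3 was at 9.66, 9.42, 9.42 and 9.502 and 9.83, 9.94, 9.83 and 9.89 (0.37 ± 0.11, adjusted p = 0.03577) and at -0.68 ± 0.11 in cells labelled CD34- (1.05 ± 0.16, adjusted p = 0.001762). The rise of Ehd3 in cells labelled CD34+ alone was lost without 6 of the 8 arrays, each taken out in turn (adjusted p from 0.05794 to 0.1047). T cell and NK cell markers fell at 2 of 25 members and rose at 0, and dendritic cell markers rose at 2 of 18 and fell at 0. These counts are small, and the T and NK cell share is near the 6.03% of all features that fell. Of the 12 MHC class II genes 1 rose and 0 fell, and of 32 integrin and adhesion genes 2 rose and 3 fell (1 and 6 with the index). Over all features 4.35% rose and 6.03% fell, and larger shares did among bright ones, so these counts do not single out either list. With the index 1 of the endothelial and stromal markers rose and 1 fell, and of the T and NK cell markers 0 rose and 1 fell.

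A measure of probe behaviour was also compared between the groups. Across 1437 genes with 2 bright probes, both probes of a gene did not always move together, and 37.8% of the within-group variance of their differences lay on 1 shared axis. The position of an array on it, here called the probe discordance index, was -0.243, -0.997, -1.09 and 0.812 in control arrays and 1.00, 0.08, 0.87 and 1.11 in CD70TG arrays. Control replicate 4 lay within the CD70TG range, and the means differed by 1.14 (exact permutation test, two-sided, n = 4 and 4, p = 0.0571, where the smallest possible is 0.0286). With the index as a covariate 1218 features were called (6.65%), 510 higher and 708 lower, and 1046 of them were also called without it. Ctsg was then at 3.74, Sult1a1 at -2.44, Plk1 at 1.97, Grb10 at -1.79 and Mcpt8 at 2.30, each with an adjusted p of 8.553e-08 or less. Flt3 was at 0.06 (adjusted p = 0.9347), Cd48 at 0.55 (adjusted p = 0.01886) and Cd70 at -1.11 (adjusted p = 0.02223). Calls lost with it included Hsp90aa1 (0.52, adjusted p = 0.1765), Vcam1 (0.48, adjusted p = 0.247), Vpreb1 (-0.63, adjusted p = 0.2469), Vpreb3 (-0.64, adjusted p = 0.1925), Rsad2 (-0.58, adjusted p = 0.07778), Tfrc (0.44, adjusted p = 0.119) and Ehd3 (0.30, adjusted p = 0.2211). Shcbp1, a gene of dividing cells, went from 1.85 ± 0.24 to 1.28, Neil3 to 1.11 and Brca1 to 0.71, and all 3 remained called. Whether the index stands for a technical or a biological difference between the pools was not tested.

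**Figure D5:**
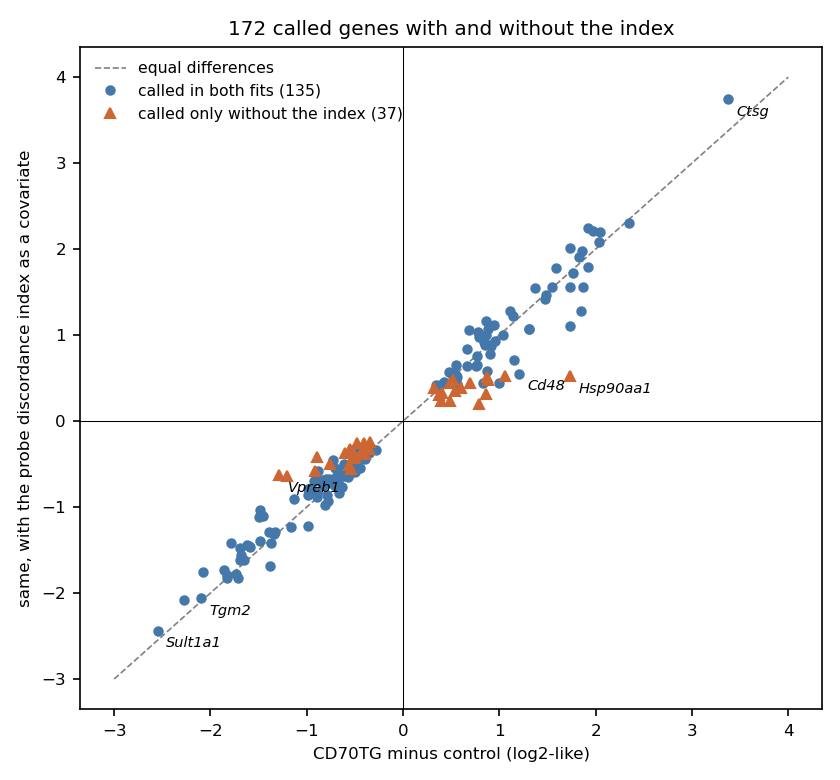
CD70TG minus control for the 172 called genes of the naming rule, without (horizontal) and with (vertical) the probe discordance index as a covariate, on the deposited log2-like scale, with a dashed line of equal differences. With the index, 35 of the 37 genes called only without it (orange) and 81 of the 135 called in both fits (blue) lie nearer to 0, among the latter Cd48, which goes from 1.21 to 0.55.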

How the data were processed

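Expression was read on Illumina bead arrays in 16 pools of sorted bone marrow stem cells, after 2 rounds of RNA amplification per the labels' protocols. The authors deposited log2-like values for 25697 probes, with log base, background correction and normalization unstated in the labels, and no further scaling was applied. A second table with 32 sample columns whose names match no label was not used. Of the probes 23978 had 1 gene symbol, 0 had several and 1719 had none, and 23962 were matched to RefSeq by gene number. Each of 16593 named genes was represented by its brightest probe (mean of the 16 arrays), and unnamed probes were kept, giving 18312 features. Differences were fitted with limma 3.58.1 in R 4.3.3 on 4 group means over the 16 arrays (lmFit, eBayes with trend), and p-values were adjusted by Benjamini-Hochberg over all features at 0.05. The script was tested on simulated data.

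An array's background limit was the mode of its values plus 1.64 SD of the values below the mode (density bandwidth 0.1). A gene below it on all 4 arrays of a group has only a bound there, computed from the group means with each dim array raised to its limit. Array number limits the precision. The labels call the pools independent. No 2 arrays shared over 0.288% of values. Deviations of same-numbered control and CD70TG arrays labelled CD34+ correlated at 0.0126, 0.378, 0.0125 and 0.3222 for replicates 1 to 4. Replicate numbers were not taken as pairs. Pairing of the fractions within a genotype, which would bear on the difference between fractions, was not examined.

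The genes and the 38 lists (1072 entries, 950 measured) were chosen with earlier results of these data known. Named genes were the 15 largest rises and 15 largest falls without overlap between groups, up to 5 called members of each list by p, all genes of the sort and transgenic design, and the 6 genes with the smallest p in each direction for the difference between fractions. Not all of them are printed. Alternatives were filters on dim probes, other probe rules, fewer arrays, array weights, scaling, a minimum fold, the probe discordance index and replicate blocks.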

Additional observations from a re-analysis of the deposited data

Results flagged for a closer look

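The effect of the CD70 transgene differed between the fractions, by an interaction term in limma at adjusted p under 0.05, for 9 genes named above. The effect in CD34+ cells minus that in CD34- cells was -2.81 for Lpl, -2.07 for Axl, -1.85 for Vcam1, -1.76 for Mrc1, -1.66 for Fcna, -1.25 for Adgre1 and -1.15 for Ms4a3. It was 1.05 for Ehd3 and 1.09 for Esm1. Fcna lay below background on every CD34+ array, and Mrc1 lay above it on 2 control and 3 CD70TG arrays labelled CD34+. For both genes the CD34+ part of the difference is limited by background.

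In some genes 1 of the 4 arrays of a group lay far from the other 3, by Dixon's ratio of the gap to the range, which chance passes in about 1 in 20 groups. In control arrays these single values were 9.75 for Bcl2, 12.2 for Cd27, 8.64 for Eng, 7.16 for Ephx1, 14.65 for Lmo2, 7.61 for Neil3 and 8.77 for Phlda2. In CD70TG arrays they were 7.66 for Art4, 9.92 for Bcl2l13, 9.12 for Bdh2, 8.19 for Brca1, 10.1 for Hdc, 8.02 for Socs2, 9.38 for Tgm2, 11.1 for Tk1 and 8.05 for Treml1.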

How the results depend on the processing

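Against a minimum fold of 1.2, taken on base 2, 490 features were called, 190 higher and 300 lower, and 20 for the difference between fractions. With the probe discordance index the counts were 1218, 510 and 708, and 63 for the fractions. Array weights gave 1278 higher, and leaving out control CD34+ replicate 4 with CD70TG CD34- replicate 2 gave 1326 higher. Leaving out each CD34+ array gave 1260 (without CD70TG replicate 1) to 2457 (without control replicate 4) called, 514 (without CD70TG replicate 1; 519 without control replicate 3) to 1167 higher, 746 to 1290 lower, 30 to 40 for the fractions and an index difference of 0.908 to 1.54. With a replicate block as a fixed term 2146 features were called, and as a random term 1911. Quantile normalization gave 2146, equal array medians 1850, the dim probe filter 2153 and its stricter form 2247. Of 172 called genes of the naming rule, 136 were called without each array in turn and 135 with the index. The difference of Car2 was 0.0024 with the mean of its probes, which point opposite ways. The cause of the other changes was not tested. Dim genes are limited by background, and the array number limits precision.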
